A study of Mus musculus with 10 samples.

Results

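Collagens, laminins and nidogens are the structural proteins from which basement membranes and collagen fibrils are built, and their mRNAs were followed here in the inner (IHCs) and the outer hair cells (OHCs) of the adult mouse cochlea. The members were taken by gene symbol alone: every collagen chain gene of the form Col, number, a, number, every laminin chain gene Lama, Lamb and Lamc with the numbers 1 to 5, and Nid1 and Nid2. This gave 57 genes (44 collagens, 11 laminins and 2 nidogens) of the 48440 genes in the table. The study compared the transcriptomes of IHCs, which transmit to the auditory nerve, with those of OHCs, which change length with their voltage and so amplify sound-evoked motion. IHCs gave 2 libraries and OHCs gave 3, each from about 1000 cells of untreated CBA/J mice aged 28 to 32 days by the sample labels (the methods of the study give a slightly wider range). The cells were freed from the tissue with an enzyme, recognized by shape and, when no other cell was attached, picked one by one with a suction pipette. A single mouse yields too few cells, so every library pools cells of several mice. Every library was sequenced in 2 lanes, whose values were averaged, and RNA levels are given in RPKM (reads per kilobase of exon, scaled to the mapped reads of the lane), which divides by gene length and so allows levels to be compared between genes.

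A laminin is a trimer of 1 alpha, 1 beta and 1 gamma chain that is secreted, binds integrins and dystroglycan on the cell surface and polymerizes into a sheet. Collagen IV forms a second network, and nidogens link both. Fibrillar collagens such as types I, II, III, V and XI form cross-linked fibrils, to whose surface the FACIT collagens (fibril-associated collagens with interrupted triple helices) such as type IX attach. In the cochlea, collagens II, IX and XI are known from the tectorial membrane, the gel that lies over the hair bundles, and mutations in the human genes of collagens II, IX, XI and of the alpha3, alpha4 and alpha5 chains of collagen IV cause hearing loss.

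The divisor of the RPKM values, inferred from the values themselves, was 19987043 to 23083993 reads per library. The labelled cell types were checked with the hair cell genes. Slc26a5, the motor protein prestin of OHCs, had a level of 9.51 RPKM in IHCs and 549 RPKM in OHCs, and Otof, which IHCs need for transmitter release, had 210 RPKM and 13.8 RPKM. The lanes of a library were compared for each member with at least 20 reads, and 0 of 127 pairs of lanes differed (exact binomial test of the reads, smallest adjusted p = 0.456). Exons of the members share at most 7.87% of their 31-base words with other genes, with the highest share in Nid2. The study calls the libraries of a cell type biological replicates but does not say which mice went into each, so any p-value here reflects no more than the library-to-library spread, part of which may be technical. With 2 against 3 libraries an exact permutation test of a single value cannot give a p below 0.1 (10 splits), so p-values come only from the fit across all genes.

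Together, the mRNAs of these proteins were low in both cell types and higher in OHC than in IHC libraries. The summed level of the 57 members was 32.3 and 31.3 RPKM in the 2 IHC libraries and 59.8, 58.7 and 57.9 RPKM in the 3 OHC libraries. The means were 31.8 ± 0.70 RPKM (SD, n = 2) and 58.8 ± 0.98 RPKM (SD, n = 3), a ratio of 1.85. The sums rested on 3978 to 4371 reads per IHC library and 7177 to 8575 reads per OHC library. In bulk libraries like these, fewer cells that express a gene and less of its RNA per cell cannot be told apart.

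The sums of the structural classes differed in direction. Among classes with reads in both cell types, the laminin alpha chains had the widest ratio, with a summed level of 1.02 and 1.23 RPKM in IHCs and of 5.03 to 5.33 RPKM in OHCs, 4.61 times as high. Lama5 alone gave 1.09 RPKM of the mean sum of 1.12 RPKM in IHCs and 4.95 of 5.19 RPKM in OHCs. The sums of the FACIT collagens (2.28 times), of the collagens of other types (1.84 times), of collagen IV (1.81 times), of the laminin beta chains (1.5 times) and of the fibrillar collagens (1.38 times) were also higher in OHCs. The sum of the multiplexins, collagens XV and XVIII, was 0.777 times that in IHCs, and the sum of the nidogens 0.647 times. Single genes gave most of the sums of collagen IV (Col4a5), of the multiplexins (Col18a1) and of the nidogens (Nid2). Nid2 did not pass the test described below. The sums of the transmembrane collagens lay closest together, with 1.12 and 1.14 RPKM in IHCs and 0.954 to 1.10 RPKM in OHCs. Within this class, Col13a1 (means of 1.12 RPKM in IHCs and 0.608 RPKM in OHCs) and Col23a1 (0 and 0.383 RPKM) lay in opposite directions. For every class named here the libraries of one cell type lay apart from those of the other. Such separation was common, since it also held for 39.5% of all genes tested as higher in IHCs and for 39.7% as higher in OHCs.

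**Figure D1:**
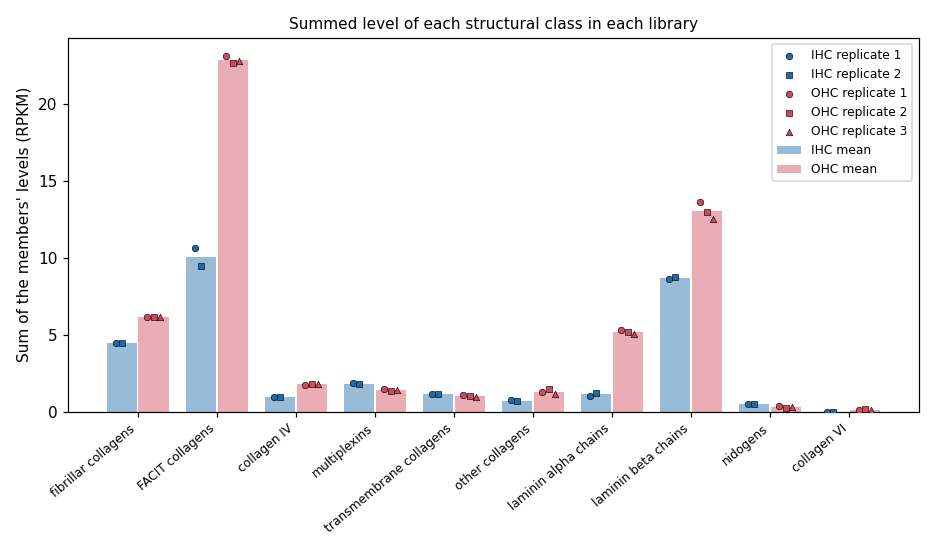
Summed level (RPKM, linear axis from 0) of the structural classes named on the axis, with bars for the mean of the 2 IHC and 3 OHC libraries and 1 symbol for each library. FACIT collagens (mean 10.1 in IHCs and 22.9 in OHCs) and laminin beta chains (8.68 and 13.0) had the highest sums, and collagen VI was at 0 in both IHC libraries.

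Most members were rare. Only 15 reached a mean level of 1 RPKM in either cell type, 14 lay between 0.1 and 1 RPKM, 24 stayed below 0.1 RPKM, and 4 (Col17a1, Col6a4, Col6a5 and Col6a6) were listed at 0 in every library. Reads were found for 37 members in IHCs and for 52 in OHCs. In IHCs the order of the means began with Lamb2, Col9a2, Col9a3, Col11a2 and Lamb1, which held 56.1% of the summed level, and in OHCs with Col9a3, Lamb2, Col9a2 and Lama5, which held 60.0%. The highest member of IHCs, Lamb2, lay above 63.3% of the genes detected there, and the highest of OHCs, Col9a3, above 78.9%.

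**Figure D2:**
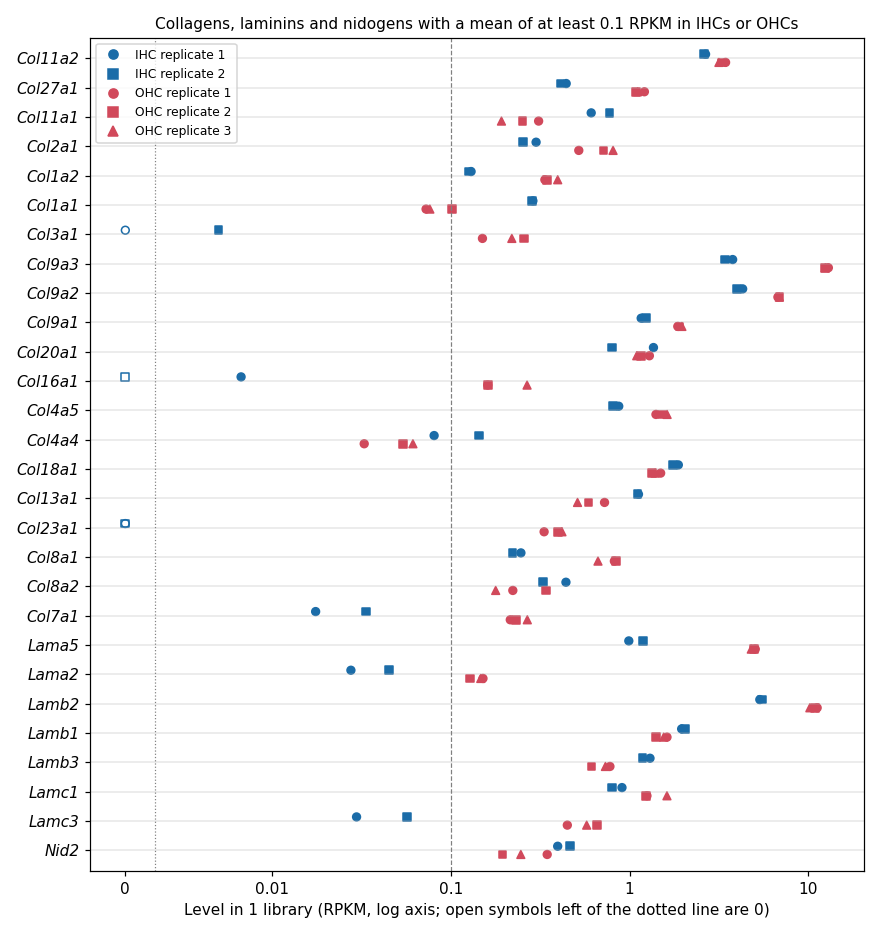
Level (RPKM, log axis) in each library of 28 members whose mean reached 0.1 RPKM in IHCs (blue) or OHCs (red), grouped by structural class. Open symbols left of the dotted line are libraries at 0, and the dashed line marks 0.1 RPKM. For Col23a1 both IHC libraries were at 0 and the OHC libraries at 0.332 to 0.418 RPKM.

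The test asked which members differed between the cell types by more than the spread between libraries. It was a linear model on log2(RPKM + 0.1) (limma, Benjamini-Hochberg adjustment over 16462 genes, threshold 0.05), and a gene entered it when 2 or more libraries reached 0.1 RPKM. Of the 57 members, 28 passed this filter. Col16a1, Col23a1, Col3a1, Col7a1, Lama2 and Lamc3 passed it through their OHC libraries alone, so the filter largely set their direction. Of the 28, 19 were higher in OHCs, where 34.4% of all genes tested were, 6 were higher in IHCs, where 34.4% of all genes were as well, and 3 (Col20a1, Col8a2 and Nid2) did not pass the test. Without the 6 passing through OHC libraries alone, 13 of 22 were higher in OHCs, 6 were higher in IHCs and 3 did not pass. The median log2 difference, IHC minus OHC, of the 22 was -0.62, beside -0.01 over all genes tested. The difference was at least 2-fold for 12 members higher in OHCs (16.0% of all genes), 5 of them among the 6 left out. It was also at least 2-fold for 2 members higher in IHCs (11.1% of all genes). The libraries did not overlap for 19 of the 28 higher in OHCs (39.7% of all genes; 13 of the 22) and for 7 higher in IHCs (39.5% of all genes), the latter including Nid2.

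**Figure D3:**
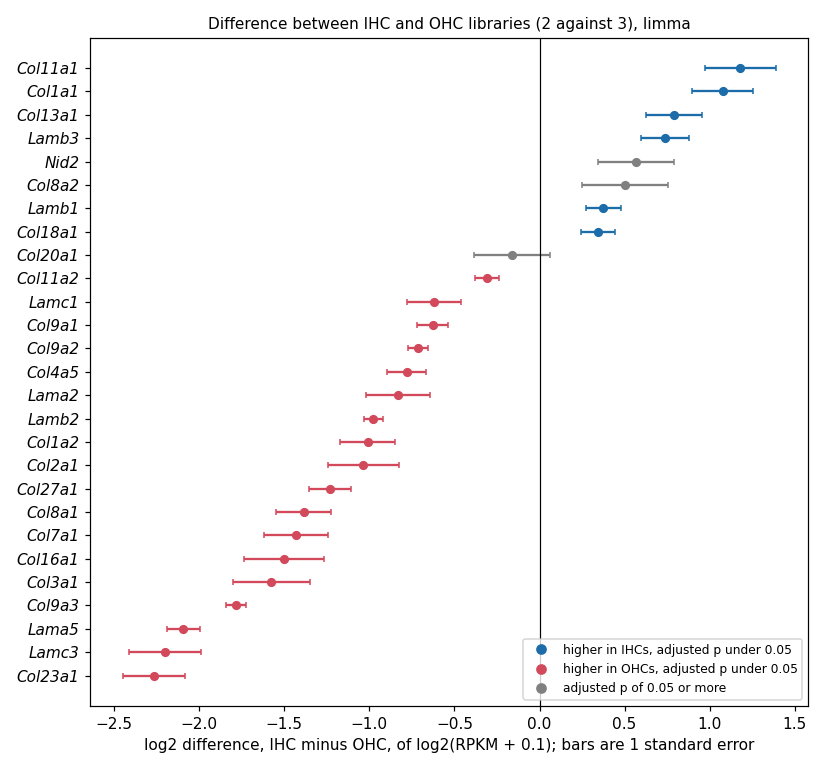
Difference between IHCs and OHCs in log2(RPKM + 0.1) for 27 of the members tested, ordered by size, with bars of 1 standard error from limma. The values run from -2.27 for Col23a1 to 1.18 for Col11a1. A pseudocount of 0.1 understates the difference of members with low levels.

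The FACIT collagens gave the largest share of the collagen signal, and among them the chains of collagen IX. Col9a3, the alpha3 chain, had 3.78 and 3.43 RPKM in IHCs and 13.0, 12.5 and 12.5 RPKM in OHCs. Col9a2, the alpha2 chain, had 4.30 and 4.0 RPKM in IHCs and 6.78, 6.92 and 6.90 RPKM in OHCs. Col9a1, the alpha1 chain, had 1.16 and 1.24 RPKM in IHCs and 1.86, 1.91 and 1.96 RPKM in OHCs. All 3 chains were thus higher in every OHC library, and their libraries did not overlap. In limma the log2 difference was -1.78 ± 0.06 (SE, adjusted p = 5.19e-06) for Col9a3, -0.71 ± 0.06 (adjusted p = 0.000134) for Col9a2 and -0.63 ± 0.09 (adjusted p = 0.00165) for Col9a1. The 3 chains lie on 3 chromosomes of the GRCm38 build, Col9a1 at chr1:24177610-24252684, Col9a2 at chr4:121039385-121055322 and Col9a3 at chr2:180597790-180622189, all on the plus strand. Exons of Tcfl5 on the other strand overlap 6.07% of the exon bases of Col9a3. Tcfl5 itself had 0.0142 RPKM in IHCs and 0.308 RPKM in OHCs, below the level of Col9a3 in each library.

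The other FACIT collagens had at most 1.36 RPKM in a library. Col20a1, a FACIT chain first known from chick, had 1.36 and 0.796 RPKM in IHCs and 1.29, 1.16 and 1.10 RPKM in OHCs. Its IHC libraries lay on both sides of the OHC libraries, and the log2 difference was -0.16 ± 0.22 (SE, limma, adjusted p = 0.546). Without IHC replicate 2 the difference turned to 0.19 (adjusted p = 0.341), while it passed as higher in OHCs without IHC replicate 1 (-0.52, adjusted p = 0.0470) and with the second lanes alone (-0.43, adjusted p = 0.0238). Col16a1 gave 1 read in IHCs and 84 in OHCs, a ratio of 55.9 per read sequenced with a 95% counting interval of 9.76 to 2233. Col19a1 had 0 reads in both IHC libraries and 9, 6 and 9 in the OHC libraries. Col12a1 and Col22a1 also had 0 reads in IHCs and at most 4 in an OHC library, and Col14a1 had at most 5 reads in any library.

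Among the 11 fibrillar collagens, 5 were higher in OHCs and 2 in IHCs, beside 34.4% of all genes tested in each direction. The other 4 had too few reads for the limma test. Col3a1, among the 5, passed the filter through its OHC libraries alone. Col11a2, the alpha2 chain of collagen XI, which sets the width of type II fibrils, was the most abundant. It had 2.67 and 2.62 RPKM in IHCs and 3.45, 3.29 and 3.17 RPKM in OHCs. The groups did not overlap, and the log2 difference was -0.31 ± 0.07 (SE, limma, adjusted p = 0.0111), which did not pass without IHC replicate 2 (-0.30, adjusted p = 0.0530). Col11a1, the alpha1 chain of the same collagen, lay the other way, with 0.691 ± 0.115 RPKM (SD, n = 2) in IHCs and 0.251 ± 0.059 RPKM (SD, n = 3) in OHCs. Its log2 difference of 1.18 ± 0.21 (SE, limma, adjusted p = 0.00360) was the largest in favour of IHCs on this scale, whereas Col1a1 had the larger one with a pseudocount of 0.01 (1.68, beside 1.44 for Col11a1) and in limma-voom (1.75, beside 1.45). Col2a1, the chain of collagen II, had a mean of 0.277 RPKM in IHCs and of 0.681 RPKM in OHCs (log2 difference -1.04 ± 0.21, limma, adjusted p = 0.00599).

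Col27a1, a fibrillar collagen of cartilage, had 0.442 and 0.411 RPKM in IHCs and 1.21, 1.09 and 1.11 RPKM in OHCs. Every OHC library was above both IHC libraries, and the log2 difference was -1.23 ± 0.12 (SE, limma, adjusted p = 0.000349). Col3a1, the chain of collagen III of soft connective tissue, had 0 and 0.00499 RPKM in IHCs and 0.15, 0.257 and 0.219 RPKM in OHCs. This was 1 read against 130, a ratio of 86.5 per read sequenced with a counting interval of 15.2 to 3441 (limma, adjusted p = 0.00154). Since Col3a1 passed the filter through its OHC libraries alone, its direction was largely set by the filter. Col1a1 and Col1a2, the chains of collagen I, moved in opposite directions. Col1a1 had 0.288 and 0.284 RPKM in IHCs and 0.0725 to 0.102 RPKM in OHCs (log2 difference 1.08 ± 0.18, limma, adjusted p = 0.00282), and Col1a2 had 0.130 and 0.125 RPKM in IHCs and 0.336 to 0.396 RPKM in OHCs (-1.01 ± 0.16, adjusted p = 0.00245). These levels rested on 10 to 96 reads per library.

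Of the 6 chains of collagen IV, the network collagen of basement membranes, Col4a5 alone reached 1 RPKM. It had 0.870 and 0.811 RPKM in IHCs and 1.41, 1.52 and 1.62 RPKM in OHCs. The groups did not overlap, with a log2 difference of -0.78 ± 0.11 (SE, limma, adjusted p = 0.00161). The alpha1 and alpha2 chains, which make up the collagen IV of most basement membranes including those of vessels, were nearly absent. Col4a1 had 0 reads in both IHC libraries and 23, 8 and 5 reads in the OHC libraries, and Col4a2 had 2 and 1 reads in IHCs and 9, 5 and 4 reads in OHCs. Col4a3 and Col4a4, whose products assemble with that of Col4a5 into 1 trimer, were not matched in level to it. Col4a3 had 0 reads in IHCs and at most 2 in an OHC library, while Col4a4 had 19 and 31 reads in IHCs and 8, 12 and 13 reads in OHCs. Col4a4 was the only member below the filter that was higher in IHCs when recovered reads were tested.

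The genes of collagen IV lie in head-to-head pairs. Col4a5 (chrX:141475385-141689234, plus strand) and Col4a6 (chrX:141165403-141474076, minus strand) start 1308 bases apart. The level of Col4a5 was 65.9 and 77.2 times that of Col4a6 in the IHC libraries and 15.9 to 32.5 times in the OHC libraries. Col4a6 rested on 2 reads in each IHC library and 8 to 16 in the OHC libraries. Because Col4a5 and Col4a6 differ so much in level, the bases just before each annotated start are shown. They are from RefSeq on GRCm38.p6, in the 5′ to 3′ direction of each gene and outside annotated exons, with capitals for the letters of a CCAAT box (CCAAT) or a GC box (GGGCGG) on either strand. The stretch of Col4a5 is chrX:141475169-141475384 (plus strand) and that of Col4a6 is chrX:141474077-141474326 (minus strand).
Col4a5: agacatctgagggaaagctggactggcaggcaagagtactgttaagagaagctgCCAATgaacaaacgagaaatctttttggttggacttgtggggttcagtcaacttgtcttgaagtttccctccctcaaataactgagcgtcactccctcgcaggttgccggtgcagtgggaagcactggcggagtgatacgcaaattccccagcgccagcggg
Col4a6: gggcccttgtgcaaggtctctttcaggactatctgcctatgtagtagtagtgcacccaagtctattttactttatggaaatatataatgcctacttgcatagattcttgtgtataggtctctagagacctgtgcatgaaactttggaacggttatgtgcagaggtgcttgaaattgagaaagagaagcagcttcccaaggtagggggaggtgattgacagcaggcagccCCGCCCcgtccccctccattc
The stretch of Col4a5 has 216 bases and ends 35 bases before the RefSeq start, while that of Col4a6 has 250 and ends at it. Box counts over these unequal stretches are not directly comparable. The stretch of Col4a5 holds 1 CCAAT box and no GC box, and that of Col4a6 holds 1 GC box and no CCAAT box. Such a match describes the letters and is no evidence of a bound factor.

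The laminins were led by the beta2 chain in both cell types. Lamb2, known from the laminins of synapses and of the glomerulus, had 5.37 and 5.51 RPKM in IHCs and 11.2, 10.9 and 10.2 RPKM in OHCs. Lamb1, the beta1 chain of most laminins, had 1.96 and 2.05 RPKM in IHCs and 1.62, 1.40 and 1.55 RPKM in OHCs. Lamb3, the beta3 chain of laminin 332, which anchors epithelia, had 1.30 and 1.18 RPKM in IHCs and 0.777, 0.613 and 0.733 RPKM in OHCs. Lamb2 was higher in every OHC library, while Lamb1 and Lamb3 were higher in both IHC libraries. In limma the log2 difference was -0.98 ± 0.06 (SE, adjusted p = 3.93e-05) for Lamb2, 0.37 ± 0.10 (adjusted p = 0.0194) for Lamb1 and 0.74 ± 0.14 (adjusted p = 0.00513) for Lamb3. The call of Lamb1 was lost without IHC replicate 1 (adjusted p = 0.0579), without IHC replicate 2 (0.0917) and without OHC replicate 2 (0.0516), with differences of 0.32 to 0.41.

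Among the alpha chains, which carry the sites for cell surface receptors, Lama5 stood far above the others. It had 0.991 and 1.19 RPKM in IHCs and 5.06, 4.99 and 4.81 RPKM in OHCs, on 251 to 1330 reads per library. All OHC libraries were more than 4 times as high as either IHC library, with a log2 difference of -2.09 ± 0.10 (SE, limma, adjusted p = 1.58e-05). Lama2, the alpha chain of muscle and peripheral nerve, passed the filter through its OHC libraries alone, which largely set its direction. It had a mean of 0.0363 RPKM in IHCs and 0.142 RPKM in OHCs (-0.83 ± 0.19, limma, adjusted p = 0.00965). That call was lost without IHC replicate 1 (adjusted p = 0.126) and without IHC replicate 2 (0.0771). Lama1, Lama3 and Lama4 had 0 reads in both IHC libraries. Lama4, the alpha chain of vessels, gave 13 to 21 reads in each OHC library, and the 7 reads of Lama3, the alpha chain of laminin 332, all came from OHC replicate 1.

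Lama5 and Lamb1 can form part of 1 laminin but moved in opposite directions, so the bases before their starts are shown in the same way, with the same capitals. The stretch of Lama5 is chr2:180225860-180226109 (minus strand; the gene lies at chr2:180176373-180225859), and that of Lamb1 is chr12:31265043-31265233 (plus strand; the gene lies at chr12:31265234-31329644).
Lama5: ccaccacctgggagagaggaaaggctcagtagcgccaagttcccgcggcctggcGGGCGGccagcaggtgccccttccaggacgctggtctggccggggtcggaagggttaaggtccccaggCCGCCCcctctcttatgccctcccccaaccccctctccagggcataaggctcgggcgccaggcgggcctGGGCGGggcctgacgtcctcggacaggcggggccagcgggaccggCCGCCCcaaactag
Lamb1: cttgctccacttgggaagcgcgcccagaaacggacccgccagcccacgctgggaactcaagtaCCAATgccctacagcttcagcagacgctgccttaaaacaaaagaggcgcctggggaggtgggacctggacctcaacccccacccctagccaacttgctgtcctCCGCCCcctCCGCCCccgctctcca
The stretch of Lama5 has 250 bases and ends at the RefSeq start, while that of Lamb1 has 191 and ends 60 bases before it. Box counts over these unequal stretches are not directly comparable. Lama5 holds 4 GC boxes and no CCAAT box, and Lamb1 holds 2 GC boxes and 1 CCAAT box. Promoter windows (250 bases before to 50 after a start) were at hand for 41 of the 57 members, with 45 starts. A GC box was found in 27 of these windows (60.0%) and in 35.7% of all 32851 windows, a CCAAT box in 33.3% and 37.4%, a TATA box (TATAAA) in 11.1% and 13.6%, and the core of SOX sites (ACAAT) in 6.67% and 31%, each counted on both strands. No test was run on these shares.

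Lamc1 and Lamc3, gamma chains of laminins, were higher in OHCs. Lamc1, the gamma chain of most laminins, had 0.907 and 0.795 RPKM in IHCs and 1.25, 1.24 and 1.62 RPKM in OHCs. Lamc3, found in retina and nerve, had 0.0296 and 0.0564 RPKM in IHCs and 0.448, 0.657 and 0.575 RPKM in OHCs. For both chains every OHC library was above both IHC libraries. Lamc3 passed the filter through its OHC libraries alone, so its direction was largely set by the filter. The log2 differences were -0.62 ± 0.16 (SE, limma, adjusted p = 0.0145, and 0.0756 without IHC replicate 2) for Lamc1 and -2.20 ± 0.21 (adjusted p = 0.000288) for Lamc3. The ratio of the means of Lamc3 was 13.0, and exons of Gm13441 on the other strand, at 0 in IHCs and 0.244 RPKM in OHCs, overlap 6.27% of its exon bases. The counting is not stated to have used strand, so reads of such partners cannot be told apart.

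Collagens with other roles lay in both directions. Col23a1, a transmembrane collagen, had 0 and 0 RPKM in IHCs and 0.332, 0.398 and 0.418 RPKM in OHCs. Against a floor of 3 reads per library its level was at least 14.9-fold higher in OHCs (44 to 48 reads per OHC library, limma, adjusted p = 0.000138). Col23a1 passed the filter through its OHC libraries alone, so its direction was largely set by the filter. Col13a1, another transmembrane collagen, which acts at the neuromuscular junction, lay the other way. It had 1.12 and 1.11 RPKM in IHCs and 0.724, 0.589 and 0.511 RPKM in OHCs, without overlap, and a log2 difference of 0.79 ± 0.16 (SE, limma, adjusted p = 0.00686).

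Col7a1, the collagen of the anchoring fibrils that tie laminin 332 to the stroma, had 0.0175 and 0.0334 RPKM in IHCs and 0.215, 0.231 and 0.268 RPKM in OHCs. Its OHC libraries were all higher, with a ratio of means of 9.36 (limma, adjusted p = 0.00105). Col7a1 passed the filter through these libraries alone, so its direction was largely set by the filter. Col18a1, a multiplexin of basement membranes whose C-terminal fragment is endostatin, had 1.88 and 1.75 RPKM in IHCs and 1.49, 1.34 and 1.39 RPKM in OHCs. Both IHC libraries were higher, and the log2 difference was 0.34 ± 0.10 (SE, limma, adjusted p = 0.0237). This call was lost in 4 of the 5 fits that left out 1 library (adjusted p = 0.0574 without IHC replicate 2, 0.114 without IHC replicate 1, 0.0679 without OHC replicate 2 and 0.0629 without OHC replicate 3).

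The remaining members tested were the chains of collagen VIII, which forms hexagonal lattices in the Descemet membrane of the eye, and Nid2. Col8a1 had a mean of 0.234 RPKM in IHCs and of 0.775 RPKM in OHCs (-1.39 ± 0.16, limma, adjusted p = 0.000625), and Col8a2 had 0.384 and 0.247 RPKM, which did not pass (0.50 ± 0.25, adjusted p = 0.128). Nid2 had 0.396 and 0.462 RPKM in IHCs and 0.346, 0.195 and 0.246 RPKM in OHCs. Both IHC libraries were above the OHC libraries, but the difference of 0.57 ± 0.22 did not pass (limma, adjusted p = 0.0669). It passed as higher in IHCs in 4 alternatives: without OHC replicate 1 (0.73, adjusted p = 0.0197), with quantile normalization (0.82, adjusted p = 0.0209), with the second lanes alone (1.05, adjusted p = 0.00273) and in limma-voom (0.72, adjusted p = 0.0429). Exons of Rtraf, listed as 2700060E02Rik and at 44.3 RPKM in IHCs and 28.0 RPKM in OHCs, overlap 8.45% of the exon bases of Nid2 on the other strand. Nid1 had 4 to 12 reads in every library. Col8a2 passed as higher in IHCs without OHC replicate 2 (0.68, adjusted p = 0.0426) and with the first lanes alone (0.77, adjusted p = 0.0456).

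Ratios between chains within a library do not depend on its depth. Lamb2, an alternative to Lamb1 in the laminin trimer, was 2.69 and 2.74 times as high as that chain in the IHC libraries and 6.58 to 7.81 times in the OHC libraries. Col9a3 was 0.857 and 0.879 times as high as Col9a2 in IHCs and 1.80 to 1.92 times in OHCs. By contrast, the ratio of Col9a2 to Col9a1 was 3.22 and 3.70 in IHCs and 3.52 to 3.64 in OHCs, so that its ranges overlapped.

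Lama5 was 1.09 and 1.49 times as high as Lamc1 in IHCs and 2.97 to 4.04 times in OHCs. In the other direction, the ratio of Lamb1 to Lamc1 was 2.16 and 2.58 in IHCs and 0.959 to 1.29 in OHCs. The order of the collagen I chains was turned round between the cell types, with a ratio of Col1a1 to Col1a2 of 2.22 and 2.27 in IHCs and of 0.192 to 0.294 in OHCs. A similar change of order was seen for Col8a1 over Col8a2 (0.559 and 0.674 in IHCs, 2.46 to 3.74 in OHCs).

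**Figure D4:**
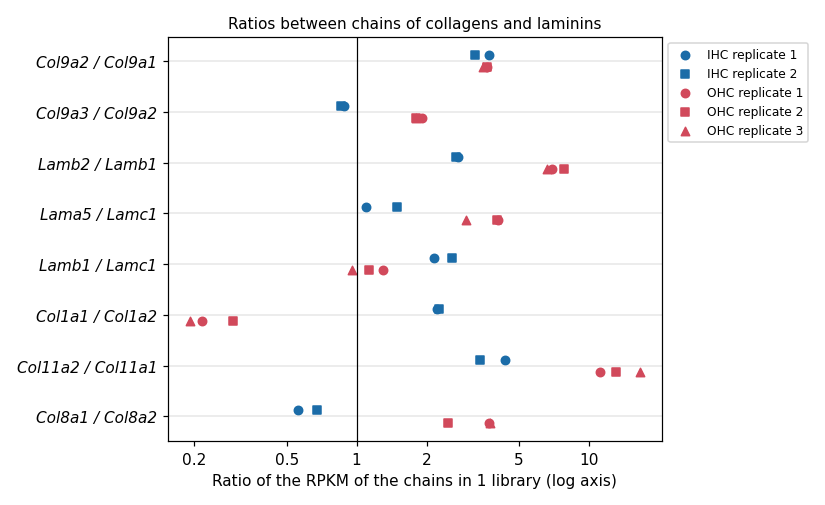
Ratio of the RPKM of 2 chains within each library (log axis, line at 1), 1 symbol for each of the 2 IHC and 3 OHC libraries. Apart from Col9a2 over Col9a1, the IHC and OHC libraries lay apart for every ratio plotted. The ratios plotted are a selection. Of those computed but not plotted, Nid2 over Nid1 overlapped (4.44 and 14.2 in IHCs, 3.52 to 8.04 in OHCs). Lama5 over Lama2 overlapped as well (36.0 and 26.3 in IHCs, 32.7 to 38.9 in OHCs). Ratios of gene pairs outside the members were not computed. For Col1a1 over Col1a2 the ratio was above 1 in both IHC libraries (2.22 and 2.27) and below 1 in the OHC libraries.

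The 29 members below the filter were described by their reads. Their largest number of reads in a library was 31, 4 of them had no read at all, and 15 had no read in either IHC library but some in OHCs. Recovered reads of 16 of these 29 could be tested with limma-voom (genes with at least 3 reads in at least 2 libraries), an alternative added after the data had been seen. In it, 12 were higher in OHCs, where 36.1% of all genes tested were, 1 (Col4a4, adjusted p = 0.0287) was higher in IHCs, where 35.2% were, and Col14a1, Col26a1 and Nid1 did not pass. Of the 12, 9 had no read in IHCs and entered the test through their OHC reads alone, so their direction was fixed and their count is a description. The other 3 were Col25a1, Col4a2 and Col4a6. Of these, Col4a2 and Col4a6 had fewer than 3 reads in each IHC library. They too entered through OHC reads alone, so their direction was largely set by the filter. The 9 were Col19a1, Col24a1, Col4a1, Col5a1, Col5a3, Col6a1, Col6a2, Lama1 and Lama4.

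Collagen VI, which forms beaded filaments around fibroblasts and muscle, had 0 reads from its 6 genes in IHCs and 10 to 17 reads per OHC library. Against a floor of 3 reads per library, Col6a1 was at least 2.46-fold higher in OHCs, Col4a1 at least 3.68-fold and Lama4 at least 5.05-fold. The ratio of Col4a2 was 3.99 per read sequenced, with a counting interval of 1.17 to 21.2. Where no read was found, the depth does not show that the gene was off. Intervals and floors cover counting error only.

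**Figure D5:**
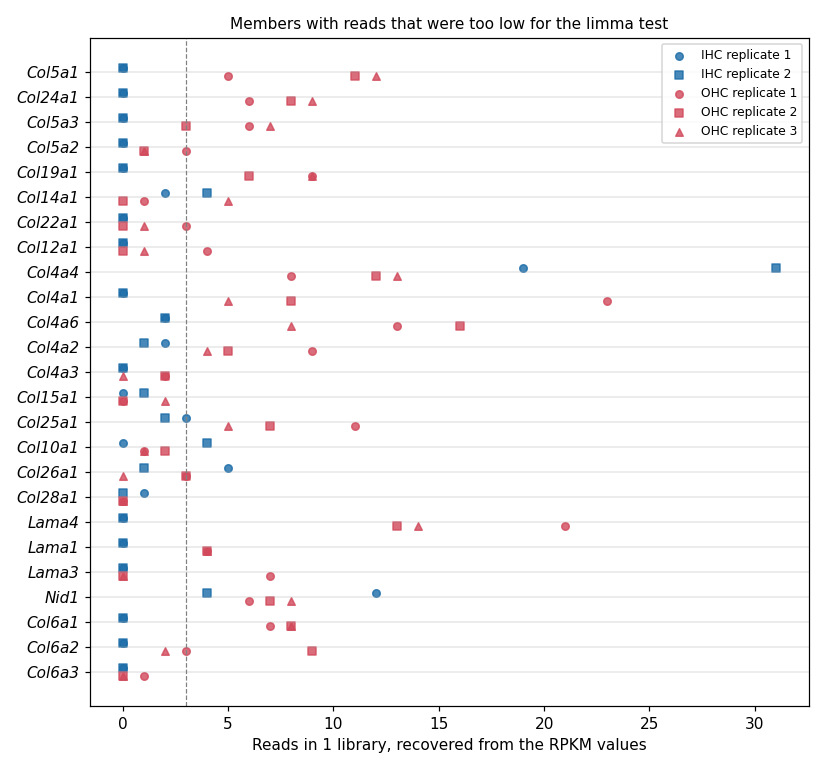
Reads per library, recovered from the RPKM values, of the 25 members with reads that were below the filter. The dashed line marks 3 reads. The IHC libraries of 15 members were at 0, and Col4a4 had the most reads, 31 in IHC replicate 2.

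Genes that make, bind or accompany collagens and laminins were followed in 3 lists, to be read beside the 34.4% of all genes tested that were higher in each cell type. Of 33 genes of collagen processing, 29 were tested, of which 7 were higher in IHCs, 15 were higher in OHCs and 7 did not pass, with a median log2 difference of -0.32. Ppib, a prolyl isomerase of the collagen prolyl 3-hydroxylation complex, had 116 RPKM in IHCs and 188 RPKM in OHCs (-0.70 ± 0.05, limma, adjusted p = 6.76e-05), and Crtap, a partner in that complex, had 2.43 and 6.82 RPKM (-1.45 ± 0.08, adjusted p = 3.02e-05). Mia3, which loads collagen at exit sites of the endoplasmic reticulum, had 17.1 and 40.3 RPKM (-1.23 ± 0.04, limma, adjusted p = 3.92e-06). Lox, which cross-links secreted collagen, lay the other way with 31 and 8.27 RPKM (1.90 ± 0.07, limma, adjusted p = 8.71e-06), as did P4ha3, a chain of prolyl 4-hydroxylase, with 3.10 and 0.440 RPKM (2.58 ± 0.16, adjusted p = 5.32e-05).

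Of 16 receptors of collagens and laminins, 14 were tested, of which 5 were higher in each cell type and 4 did not pass (median -0.12). Bcam, a receptor of laminin alpha5, had 62.7 ± 1.94 RPKM (SD, n = 2) in IHCs and 37.8 ± 2.31 RPKM (SD, n = 3) in OHCs, opposite in direction to Lama5 (0.73 ± 0.06, limma, adjusted p = 0.000129). Itgb1, the shared beta1 chain of most such integrins, had 34.8 and 31 RPKM (0.17 ± 0.04, limma, adjusted p = 0.0117), and Dag1, dystroglycan, had 12.5 and 16.5 RPKM (-0.40 ± 0.03, adjusted p = 0.000203). Of 21 other basement membrane proteins, 12 were tested, of which 2 were higher in IHCs, 9 in OHCs and 1 did not pass (median -0.66). Sparc, a collagen-binding protein, had 251 and 413 RPKM (-0.72 ± 0.03, limma, adjusted p = 6.14e-06), and Smoc2, of the same family, had 1.29 and 0.867 RPKM in the IHC libraries and 36.4, 37.3 and 37.2 RPKM in the OHC libraries (-5.0 ± 0.15, adjusted p = 3.23e-06). Ntn4, a netrin that binds laminin gamma chains and breaks up laminin networks, had 49.0 RPKM in IHCs and 15.7 RPKM in OHCs (1.63 ± 0.03, limma, adjusted p = 9.2e-07).

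Markers of other cells were also found, although solitary cells had been picked, and most lists had higher sums in OHC libraries, as the members had. Counts for all marker lists are again to be read beside the 34.4% of all genes tested that were higher in each cell type. All 12 genes of the fibrocyte and fibroblast list were tested, of which 9 were higher in OHCs, 1 in IHCs and 2 did not pass. Their summed level was 351 to 352 RPKM in the IHC libraries and 708 to 728 RPKM in the OHC libraries, with Dpt and Mgp at 0 in IHCs and Fmod at 0 in OHCs. Lum had 159 and 287 RPKM in IHCs and OHCs, and Pdgfra had 1.67 and 7.55 RPKM. The 11 supporting cell genes, 5 higher in each cell type and 1 not passing, summed to 1658 to 1669 RPKM in IHCs and 1376 to 1416 RPKM in OHCs. Prox1 was at 0 in IHCs. The direction of this sum hung on few genes. Gjb2 had 405 RPKM in IHCs and 121 RPKM in OHCs, and Slc1a3 had 131 and 7.67 RPKM. Epyc, the highest of the list, lay the other way with 455 and 603 RPKM, as did Otog with 19.1 and 45.9 RPKM.

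The vessel list (11 genes) summed to 2.16 to 2.35 RPKM in IHCs and 1.02 to 1.12 RPKM in OHCs. Esam alone gave 2.30 and 2.07 RPKM of the IHC sums and 0.0497 to 0.105 RPKM of the OHC sums, and the other 10 genes summed to 0.0469 to 0.0854 RPKM in IHCs and 0.966 to 1.06 RPKM in OHCs, with Cspg4, Kdr, Pecam1, Tek and Tie1 at 0 in IHCs and Cspg4 and Tie1 at 0 in OHCs. Of its 3 genes tested, 1 was higher in IHCs and 2 in OHCs. The 7 Schwann cell genes summed to 8.62 to 8.68 and 13.5 to 14.5 RPKM (0 higher in IHCs and 4 in OHCs of 6 tested). The 6 genes of the stria vascularis summed to 19.2 to 19.7 and 34.4 to 34.9 RPKM (4 of 4 tested higher in OHCs, with Esrrb and Tyr at 0 in IHCs). Kcnj10 alone gave 19.1 and 18.5 RPKM of the strial sums in IHCs and 28.1 to 28.9 RPKM of those in OHCs. The 7 genes of bone and cartilage summed to 0.634 to 0.864 and 1.22 to 1.67 RPKM (1 higher in IHCs and 2 in OHCs of 5 tested), with Comp, Ibsp, Runx2 and Sp7 at 0 in IHCs and Matn3 and Sp7 at 0 in OHCs. The 7 leukocyte genes summed to 7.05 to 7.12 and 92.4 to 95.7 RPKM (1 higher in IHCs and 4 in OHCs of 6 tested, with Ptprc at 0 in IHCs), and the 5 erythrocyte genes, all higher in OHCs, to 343 to 356 and 1552 to 1666 RPKM. The part of these cells in the levels of the members was not tested.

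Some members lie close together. On chromosome 2, Lama5 and Col9a3, both higher in OHCs, lie 371.9 kb apart, and Col20a1, which did not pass, lies 364.3 kb beyond Col9a3. On chromosome 1, Col9a1, higher in OHCs, lies 9.21 kb from Col19a1, and on chromosome 9, Lamb2 and Col7a1, both higher in OHCs, lie 463.1 kb apart. The direction of Col7a1 was largely set by the filter, which it passed through its OHC libraries alone. Whether neighbours share a direction more often than other members was not tested. On chromosome 10, Col18a1, higher in IHCs, lies 326.0 kb from Col6a1, which had reads in OHCs alone.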

How the data were processed

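The authors mapped paired reads to GRCm38 (also named mm10 in the submitters' processing notes) with CLC Genomics Workbench, counted reads per gene with HTSeq and deposited RPKM values for 10 lanes, which were used as deposited. The lanes of a library were averaged, which gave 2 IHC and 3 OHC libraries. The members and gene lists were chosen with earlier results of these data known.

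Levels were analysed as log2(RPKM + 0.1) for genes that reached 0.1 RPKM in 2 or more libraries, in R 4.3.3 with limma 3.58.1 (variance trend, IHC minus OHC, two-sided, Benjamini-Hochberg, threshold 0.05). Reads were recovered as RPKM times exon length times the reads of the lane. That number of reads was itself inferred from the RPKM values, as the divisor that made small values whole. It is smaller than the number of reads per sample that the study reports. With exon lengths of the GENCODE annotation of GRCm38, 69.8% to 70.6% of the values of a lane were whole within 0.01 reads. Because the divisor was inferred, this share is not a fully independent check. For 5636 of 19961 detected genes, 13 members among them, a length was searched for instead, and 31 genes were left without whole reads. limma-voom was run on these reads as an added alternative.

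Values per library are given for members whose mean reached 1 RPKM in a cell type and for members past the test with at least a 4-fold difference and 0.2 RPKM in the higher one. Of the lists, the gene of highest mean and up to 3 past the test in each direction, with at least 1 RPKM, could be named. Other values per library (Col1a1, Col1a2, Nid2 and members below the filter) were chosen after they had been seen. The values of 1 member enter the counts but are not reported here. The fit was tested on simulated data. Promoter sequences are from RefSeq, and a check of protein features was not run here. The other steps ran in Python 3.11.15 with scipy 1.17.1, pandas 2.3.3, numpy 2.4.6 and matplotlib 3.10.9. As alternatives, the pseudocount was set to 0.01 or to 1, the filter was dropped or raised to 1 RPKM, quantile normalization or median-of-ratios scaling was applied, the first or the second lanes were used alone, the variance trend was dropped, the replicate number entered as a block, and each library was left out in turn.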

Additional observations from a re-analysis of the deposited data

How the results depend on the processing

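Of the 28 members tested, 20 kept their direction and their side of the threshold in every alternative that tested them. Of these, 10 were tested in 16 alternatives and 10 in 15, since the filter of at least 1 RPKM left the latter out. Among the 20 were Col16a1, Col23a1, Col3a1, Col7a1 and Lamc3. They entered the main test through OHC libraries alone, so the filter largely set their direction. Col20a1 alone changed direction, with log2 differences of -0.52 to 0.19 when a library was left out (0.19 without IHC replicate 2). The number of members higher in OHCs, 19, became 10 with a filter of at least 1 RPKM, which tests 15 members, and 31 with limma-voom, which tests 44. In limma-voom 36.1% of all genes tested were higher in OHCs. Among the 31 were 9 members below the main filter with no read in IHCs. Col4a2, Col4a6, Col16a1, Col23a1 and Col3a1, also among them, had fewer than 3 reads in each IHC library. All of these entered limma-voom through OHC reads alone, so the filter largely set their direction. The number of partner genes past the test, 43, became 26 with the filter of at least 1 RPKM. Leaving out each library gave 4 to 7 members higher in IHCs, 16 to 19 higher in OHCs and 34 to 42 partner genes, and over all genes 4337 to 5753 higher in IHCs and 4632 to 5651 higher in OHCs. With 1 IHC library left, it is assumed to vary like the OHC libraries.

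Whether replicate numbers shared by the labels pair the libraries is not stated. Deviations of same-numbered libraries had correlations of 0.01 and -0.02. With 2 IHC libraries, the deviations of these libraries mirror each other, so the correlations cannot show whether libraries share mice. The study collected IHCs and OHCs from each mouse, so shared mice are possible. With the replicate number as a block, 4 members were higher in IHCs and 17 in OHCs, 37 partner genes passed, and 5060 and 4985 of all genes did. Quantile normalization ended the call of Lama2 (adjusted p = 0.210), and the first lanes alone ended that of Col18a1 (adjusted p = 0.0633). Members with 1 to 3 reads are limited by depth.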
